A study of Rattus norvegicus with 17 samples.

Results

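Genes used to tell the pyramidal cell fields of the hippocampus apart were followed across 3 prenatal diets in the hippocampus of adolescent rats. They were chosen by the field they mark, with earlier results of these data known. They are 10 of the 34322 genes counted: Wfs1, Fibcd1, Mpped1 and Pou3f1 for CA1, Rgs14, Amigo2, Pcp4 and Map3k15 for CA2, and Bok and Cpne4 for CA3. RNA was sequenced from 17 Long-Evans rats aged 36 to 38 days, the offspring of dams that received a liquid diet with 6.7% ethanol (ET, 5 rats, 2 females and 3 males), the same kind of liquid diet without ethanol in yoked amounts (PF, 6 rats, 3 of each sex) or standard chow ad libitum (AD, 6 rats, 3 of each sex). The diets were given from gestational day 0 to 20, after which all dams ate chow. The offspring of a diet came from 1 litter, so diet and litter cannot be told apart, and p-values measure the spread between littermates.

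The hippocampus passes signals along a chain of excitatory cells: granule cells of the dentate gyrus send mossy fibres to the pyramidal cells of CA3, and CA3 sends Schaffer collaterals to CA1, the main output field for spatial and episodic memory. CA2 is a small field between them, known for its part in social memory and for synapses that resist long-term potentiation. Each field is recognised by genes that its pyramidal cells express more strongly than those of its neighbours, although most of these genes are also expressed in other brain regions. In RNA from a whole hippocampus, fewer cells of a field and less RNA per cell cannot be told apart.

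Between 10853947 and 17498392 fragments were counted per library. Levels below are normalized counts, the counts of each library scaled to a common library size, and they were compared between libraries and not between genes, whose lengths were not used. The summed level of 4 genes of excitatory neurons (Neurod6, Camk2a, Slc17a7 and Nrgn) lay between 85902 and 119962, so that all libraries held RNA of excitatory neurons. In each diet 1 library stood apart by choroid plexus RNA, with summed levels of 10 choroid plexus genes of 98904 in ET, 113282 in PF and 125100 in AD, against group medians of 2264, 2086 and 1092. They were ET replicate 2, PF animal 11f6 and AD replicate 4. The next highest sums, also well above their group medians, were 16402 in PF replicate 2 and 15071 in ET replicate 1. ET replicate 1 and AD replicate 6 had the highest sums of 4 neocortical genes (Rorb, Fezf2, Tbr1 and Lamp5), 4548 and 3534, where the medians were 1551 in ET, 1953 in PF and 2420 in AD. Lamp5 made up most of these sums, at 2515 and 1975. ET replicate 1 also had the highest Tbr1 of all libraries (1479) and the highest Fezf2 of ET (477), but the lowest Rorb of all (76.4). AD replicate 6 had the highest Rorb of AD (148) and a Tbr1 of 1061, but the lowest Fezf2 of AD (350). In 2 libraries, both AD, sex-linked genes went against the labelled sex, and the sexes were therefore compared in ET and PF only. The AD labels were still used as given for hemisphere, and for sex where it was a covariate in a comparison with AD.

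Map3k15 was the 1 member called between diets, and it stood apart in the PF controls. Map3k15 encodes a kinase of the apoptosis signal-regulating family at the head of stress-activated MAP kinase cascades. Its normalized count was 26.5, 18.6, 17.1, 21 and 21.9 in the 5 ET rats. In the PF rats it ran from 174 to 193 with a median of 182, and in the AD rats from 16.2 to 22.1 with a median of 17.5. Every PF library was far above every ET and AD library, while ET and AD overlapped. Map3k15 was lower in ET than in PF by a log2 fold change of -3.11 (SE 0.10, 95% interval -3.32 to -2.90, adjusted p = 4e-10, edgeR's quasi-likelihood test), an 8.63-fold difference. PF exceeded AD by a log2 fold change of 3.31 (SE 0.08, 95% interval 3.14 to 3.48, adjusted p = 1.8e-12, edgeR), or 9.94-fold. Both comparisons use the same 6 PF libraries. Between ET and AD the log2 fold change was 0.20 (SE 0.14, 95% interval -0.10 to 0.51, adjusted p = 1, edgeR). A gene was called where the adjusted p was below 0.01 and the log2 fold change was beyond 1.5 in either direction. In ET against PF 2.14% of 16088 genes were called lower, and Map3k15 was the 1 of 10 members so called. In PF against AD 1.99% of 15902 genes were called higher, and again 1 of 10 members was. The groups of Map3k15 did not overlap in either comparison, as for 5.33% of genes in ET against PF and 4.87% in PF against AD, and the groups of the other 9 members overlapped in both.

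Map3k15 lies over another gene, and its counts have to be read with that in view. In the RefSeq gene list of the rat assembly GRCr8, Map3k15 overlaps Pdha1, which encodes the alpha subunit of the first enzyme of the pyruvate dehydrogenase complex, and the pseudogene Ubl4a-ps1, which has no row in the count table. The authors let a read count for every feature it overlapped, and the strand setting is not given in the sources used here. Pdha1 had a normalized count of 833, 704, 791, 815 and 815 in the ET rats, 760 to 1008 (median 926) in the PF rats and 736 to 834 (median 803) in the AD rats, so its groups overlapped. Its log2 fold change was -0.20 in ET against PF (SE 0.07, adjusted p = 0.19, edgeR) and 0.18 in PF against AD (SE 0.06, adjusted p = 0.12, edgeR). The PF library at 760 was replicate 6, and without it the log2 fold change was -0.25 in ET against PF (SE 0.06, adjusted p = 0.024, edgeR) and 0.23 in PF against AD (SE 0.04, adjusted p = 0.0034, edgeR), so whether Pdha1 passed an adjusted p of 0.05 rested on 1 library. Counted on Map3k15 were 2.16 to 3.18% as many fragments as on Pdha1 in ET, 18.7 to 24.2% in PF and 1.97 to 2.79% in AD. In mean normalized counts, Map3k15 stood at 21 in ET, 183 in PF and 18.3 in AD, and Pdha1 at 792, 909 and 800. PF replicate 6 had 184 for Map3k15 and 760 for Pdha1, below the ET and AD means of Pdha1. Whether the PF fragments came from Map3k15 transcripts or from other RNA of the locus was not tested, since the files hold 1 count per gene.

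**Figure D1:**
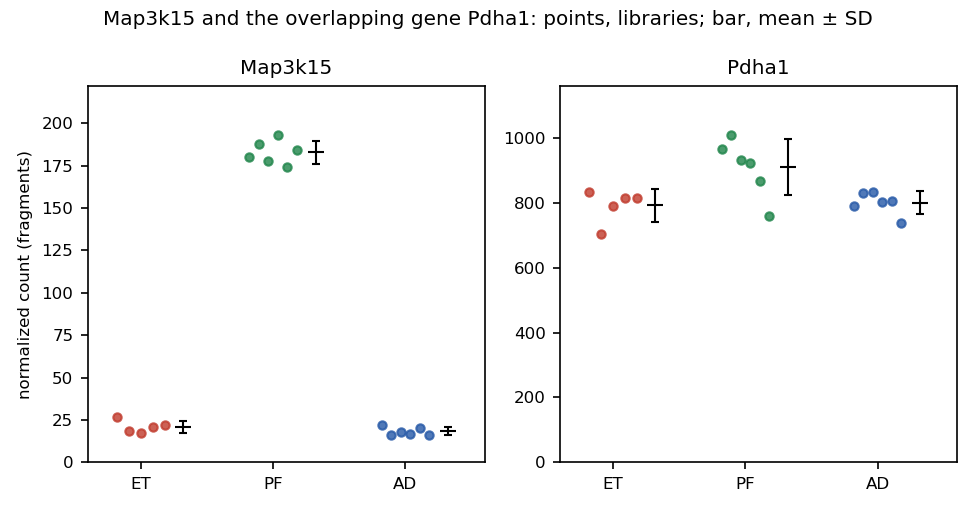
Normalized counts (y axis, fragments, from 0) of Map3k15 and of the overlapping gene Pdha1 in the 17 libraries by prenatal diet (x axis). Points are libraries and bars are mean ± SD. The 6 PF points of Map3k15 sit between 174 and 193, above all ET and AD points (16.2 to 26.5), while the Pdha1 groups overlap, PF replicate 6 being the lowest PF point (760).

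No CA1 member passed the call in any diet comparison. Wfs1, the endoplasmic reticulum protein wolframin, had normalized counts of 2871, 3956, 3943, 4656 and 4485 in ET, 2421 to 4812 (median 4247) in PF and 3133 to 5193 (median 4365) in AD. The 3 ranges lay almost on top of each other, and the lowest values of each diet were in ET replicate 1, PF animal 11f6 and AD replicate 4. Its log2 fold change was 0.05 in ET against PF (SE 0.19), -0.09 in ET against AD (SE 0.16) and -0.14 in PF against AD (SE 0.19). Fibcd1, a membrane receptor that binds acetylated sugars, had 952, 2065, 2656, 2703 and 1766 in ET, 1808 to 2860 (median 2455) in PF and 1418 to 2910 (median 2295) in AD. ET replicate 1 and AD replicate 6 were the lowest libraries of Fibcd1, and the 3 groups overlapped. The log2 fold change of Fibcd1 was -0.22 in ET against PF (SE 0.23), -0.20 in ET against AD (SE 0.25) and 0.02 in PF against AD (SE 0.17). Without ET replicate 1 the value in ET against PF was -0.04 (SE 0.17). Mpped1, a metallophosphoesterase, was the steadiest CA1 member, with 3076 to 4317 in ET, 3166 to 4279 in PF and 3876 to 4450 in AD. Its log2 fold change was -0.09 (SE 0.09), -0.16 (SE 0.08) and -0.07 (SE 0.07) in the same 3 comparisons. Mpped1 overlaps the long noncoding gene LOC120093700 in the gene list, whose mean normalized count was 1.68 in ET, 4.4 in PF and 1.93 in AD, too low to be tested.

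Pou3f1, a POU domain transcription factor, was the CA1 member with the largest PF against AD value. Its normalized count was 414, 454, 427, 516 and 559 in ET. In PF it was 367, 423, 480, 401, 308 and 537, and in AD 643, 709, 671, 438, 603 and 354. AD replicates 1, 2, 3 and 5 lay above every PF library, and AD replicates 4 and 6 lay within the PF range. The log2 fold change in PF against AD was -0.45 (SE 0.17, 95% interval -0.82 to -0.08, unadjusted p = 0.022, adjusted p = 0.18, edgeR), which missed the threshold. It was 0.18 in ET against PF (SE 0.13) and -0.27 in ET against AD (SE 0.16).

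Of the CA2 members, Rgs14, Amigo2 and Pcp4 did not pass the call in any diet comparison. Rgs14 is a regulator of G protein signalling that restrains potentiation at CA2 synapses. Its normalized count was 1219, 1950, 1975, 2473 and 1627 in ET, 1753, 1590, 2280, 1620, 1609 and 1992 in PF, and 2402, 2552, 2014, 2308, 2881 and 1750 in AD. AD replicates 1, 2, 4 and 5 were above the highest PF library, and AD replicate 6 was the lowest of its group. The log2 fold change in PF against AD was -0.36 (SE 0.12, 95% interval -0.63 to -0.10, unadjusted p = 0.011, adjusted p = 0.12, edgeR). Rgs14 and Pou3f1 were the 2 members other than Map3k15 with an unadjusted p below 0.05 in this comparison, a level that 17.3% of genes reached. Without AD replicate 6, both Rgs14 (log2 fold change -0.43, SE 0.11, adjusted p = 0.041, edgeR) and Pou3f1 (-0.55, SE 0.14, adjusted p = 0.044, edgeR) fell below an adjusted p of 0.05, which 6.19% of genes were with all libraries. Without PF replicate 3, Rgs14 did so (-0.45, adjusted p = 0.039, edgeR) and Pou3f1 did not. Over all 20 alternatives of this comparison, 3 of the 180 values of the members other than Map3k15 were below an adjusted p of 0.05, and none passed the call. Rgs14 had a log2 fold change of 0.03 in ET against PF (SE 0.16) and -0.33 in ET against AD (SE 0.16).

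Amigo2, an adhesion molecule with leucine-rich repeats and an immunoglobulin domain, had normalized counts of 174 to 288 in ET, 197 to 304 in PF and 200 to 381 in AD, with medians of 240, 229 and 249. Its log2 fold change was -0.07 (SE 0.15) in ET against PF, -0.24 (SE 0.18) in ET against AD and -0.17 (SE 0.16) in PF against AD. Amigo2 overlaps Pced1b in the same gene list, and Pced1b had mean levels of 71.6 in ET, 73.3 in PF and 73.2 in AD. Pcp4, a small protein that modulates calmodulin, had 2128, 1879, 1418, 1780 and 1498 in ET, 1086 to 1667 (median 1522) in PF and 1458 to 2072 (median 1599) in AD. ET replicates 1, 2 and 4 lay above the PF range, replicate 1 by the most. Pcp4 had the smallest adjusted p of the 9 other members in ET against PF, 0.42 (edgeR), at a log2 fold change of 0.24 (SE 0.12, 95% interval -0.03 to 0.51).

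The CA3 members Bok and Cpne4 did not pass the call either, and both spread widest in ET. Bok, a Bcl-2 family protein, had normalized counts of 446, 838, 926, 946 and 626 in ET, 557 to 723 (median 677) in PF and 557 to 921 (median 673) in AD. Cpne4, a copine that binds membrane lipids when calcium is present, had 1554, 3277, 4529, 4142 and 2350 in ET, 2253 to 4324 (median 3116) in PF and 2110 to 3924 (median 2769) in AD. In both genes the lowest ET library was replicate 1 and the lowest AD library replicate 6, and replicates 3 and 4 were the highest of ET. The log2 fold change of Bok was 0.23 in ET against PF (SE 0.17), 0.12 in ET against AD (SE 0.18) and -0.11 in PF against AD (SE 0.11). Without ET replicate 1 the value of Bok in ET against PF was 0.37 (SE 0.12, adjusted p = 0.15, edgeR). For Cpne4 it was 0.05 (SE 0.25), 0.08 (SE 0.25) and 0.03 (SE 0.18).

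**Figure D2:**
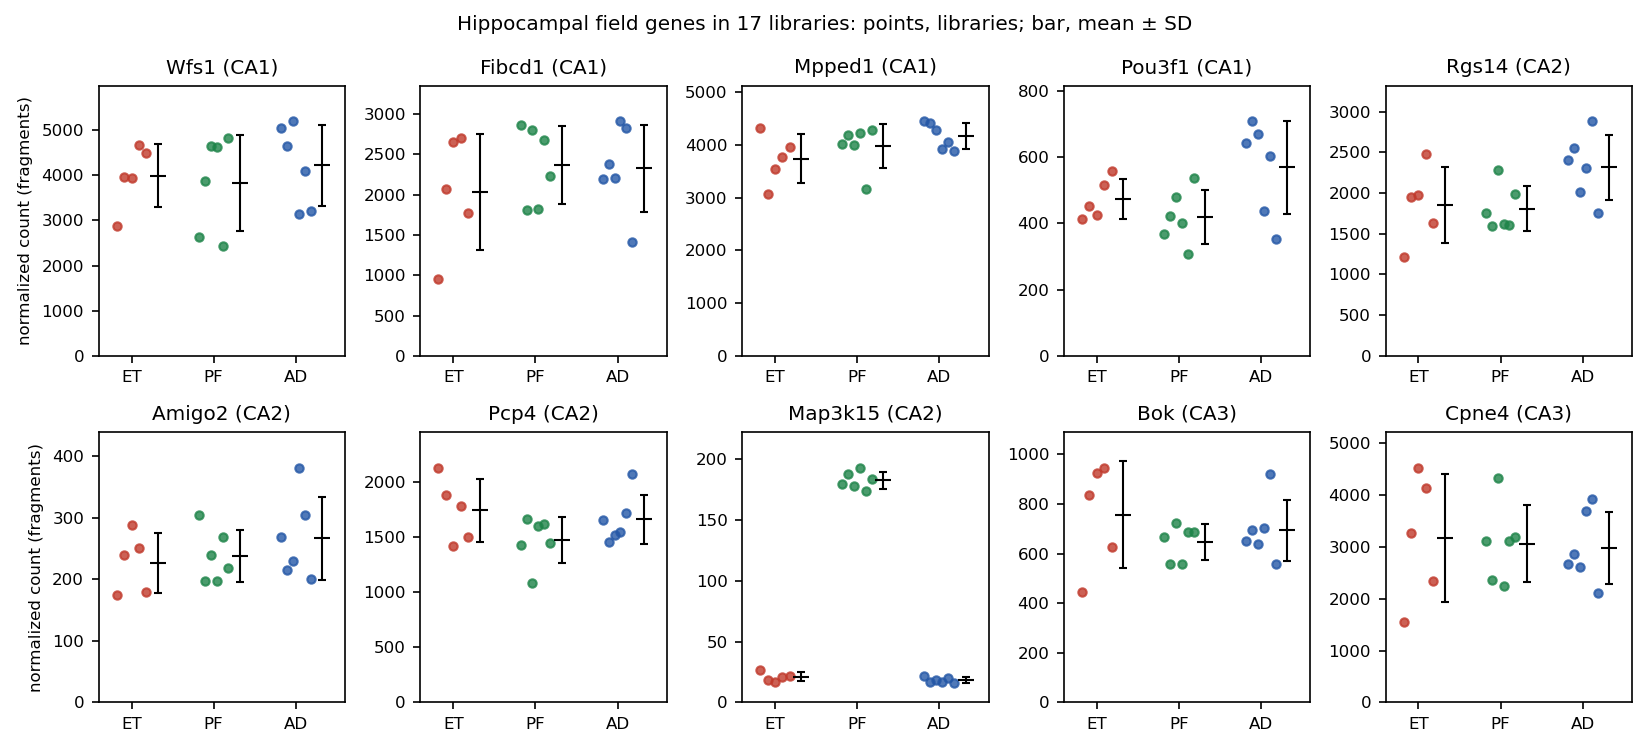
Normalized counts (y axis, fragments, from 0, own scale for each gene) of the 10 members in the 17 libraries by prenatal diet (x axis). Points are libraries and bars are mean ± SD. Map3k15 separates PF (174 to 193) from ET and AD, and the diet groups of the other 9 genes overlap.

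Across the 9 members other than Map3k15, the log2 fold changes lay between -0.22 and 0.24 in ET against PF, with 95% intervals that reached from -0.73 to 0.60. They lay between -0.33 and 0.12 in ET against AD, with interval bounds of -0.74 and 0.63, and between -0.45 and 0.03 in PF against AD, with bounds of -0.82 and 0.41. Every interval was thus inside the log2 threshold of 1.5. In ET against AD 0 of the 10 members were called and 0 had an unadjusted p below 0.05 by edgeR's quasi-likelihood test, and DESeq2 called 0. In that comparison 0.0127% of 15700 genes were called, 4.57% had an unadjusted p below 0.05, and 0.599% had groups that did not overlap, against 0 of the 10 members. The median log2 fold change of the 10 members was 0.04 in ET against PF, -0.12 in ET against AD and -0.12 in PF against AD, where that of all genes tested was 0.01, 0.00 and -0.01.

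**Figure D3:**
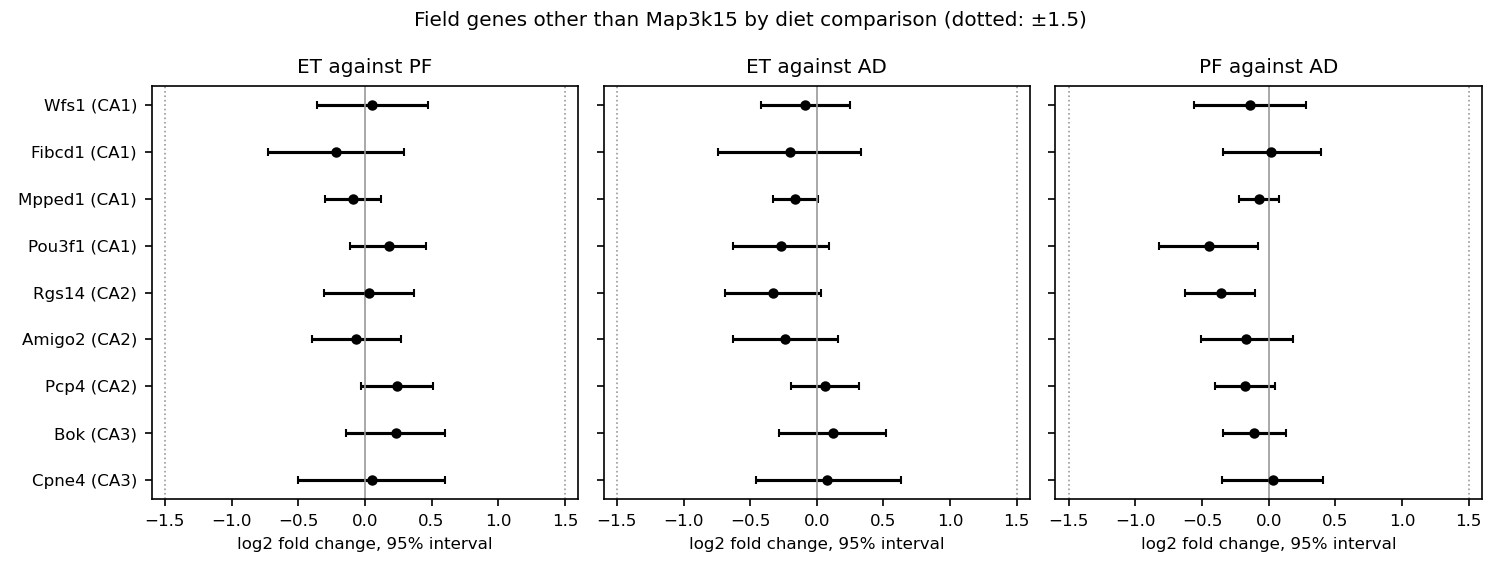
Log2 fold change with its 95% interval (x axis, edgeR) of the 9 members other than Map3k15 (y axis) in the 3 diet comparisons. Dotted lines mark the log2 threshold of 1.5 in either direction. All intervals lie inside the lines, and in PF against AD those of Pou3f1 and Rgs14 lie below 0.

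No member differed detectably by sex or hemisphere. In ET and PF rats, the log2 fold change of males over females lay between -0.10 (Mpped1) and 0.20 (Wfs1), with 95% intervals reaching from -0.66 to 0.62. None of the 10 members was called by edgeR or DESeq2, 0 had an unadjusted p below 0.05 by edgeR, and 0.0373% of 16088 genes were called and 1.9% had an unadjusted p below 0.05. For the difference between the sexes in the ET against PF effect, edgeR and DESeq2 called 0 of the 10 members. The percentage of all 16705 genes called by edgeR was 0, and 1.53% had an unadjusted p below 0.05, with 0 of the members among them. The members' interval bounds of -0.95 and 1.54 leave wide room in this test. Between the 4 right and 13 left hippocampi, the log2 fold changes of the members lay between -0.06 (Map3k15) and 0.13 (Pou3f1), with interval bounds of -0.53 and 0.53. Again 0 members were called by either tool and 0 had an unadjusted p below 0.05 by edgeR, where the percentage of 16401 genes called was 0 and 4.9% had an unadjusted p below 0.05. The 2 AD libraries whose sex-linked genes went against their label were kept in this test, and their hemisphere labels were not checked.

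Further genes of the 3 fields, listed apart from the members, gave 1 gene at an adjusted p below 0.05. Cacng5, a CA2-enriched auxiliary subunit of AMPA receptors, had normalized counts of 221, 288, 295, 244 and 210 in ET. In PF it had 149, 180, 156, 179, 210 and 206, and in AD 260, 292, 224, 198, 221 and 259. The PF rats were the low group. Every ET library was above every PF library, though the closest both round to 210, while PF and AD overlapped. Groups did not overlap in ET against PF for 5.33% of genes. The log2 fold change was 0.48 in ET against PF (SE 0.12, adjusted p = 0.03, edgeR), -0.44 in PF against AD (SE 0.11, adjusted p = 0.027, edgeR) and 0.05 in ET against AD (SE 0.12). Both differences were below the log2 threshold of 1.5. Each kept its direction when any single library was left out, but not always an adjusted p below 0.05. The adjusted p of ET against PF rose to 0.084 without ET replicate 2, 0.071 without ET replicate 3, 0.052 without ET replicate 4, 0.068 without PF replicate 1, 0.066 without PF replicate 2, 0.071 without PF replicate 3 and 0.066 without PF animal 11f5 (edgeR). That of PF against AD rose to 0.068 without PF replicate 1, 0.065 without PF replicate 2, 0.062 without PF replicate 3, 0.063 without PF animal 11f5, 0.063 without AD replicate 1, 0.073 without AD replicate 2 and 0.06 without AD replicate 6 (edgeR). In the 14 samples of the final set of the study the adjusted p was 0.057 in ET against PF and 0.0075 in PF against AD (edgeR). By DESeq2 on all libraries it was 0.0052 and 0.0065. With a single library left out, the log2 fold change lay between 0.42 and 0.54 in ET against PF. In PF against AD it then lay between -0.48 and -0.37.

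Of the other CA2 genes Cacng5, Necab2, Stard5, Ntf3 and Ccdc3, which were tested, 1 of 5 was higher at an adjusted p below 0.05 in ET against PF, where 1.25% of all genes were. In PF against AD 1 of 5 was lower, against 1.24% of all genes, and in ET against AD 0 of 5 passed, by edgeR, against 0.0382% of all genes. Their median log2 fold change was 0.25 in ET against PF, with Ccdc3 highest at 0.51 (SE 0.17, adjusted p = 0.14, edgeR), -0.08 in PF against AD and 0.05 in ET against AD. Gpr161, a CA1 gene that encodes a receptor of the primary cilium, did not pass in any diet comparison. Its log2 fold change was -0.02 in ET against PF (SE 0.19), -0.16 in ET against AD (SE 0.23) and -0.15 in PF against AD (SE 0.17). The other CA3 genes tested were the kainate receptor subunit Grik4, the extracellular matrix gene Coch and the adhesion gene Nectin3, and 0 of 3 passed, with medians of 0.06, 0.10 and 0.06. Spink8, a further CA1 gene, had mean normalized counts of 4.14 in ET, 3.07 in PF and 2.3 in AD, and Iyd, a further CA3 gene, stayed at or under 3 counts in every library.

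The members spread more between libraries of one diet than most genes did. The SD of log2 levels within diets was 0.44 for Cpne4 and for Fibcd1, 0.36 for Wfs1, 0.31 for Pou3f1 and Amigo2, 0.30 for Bok, 0.28 for Rgs14 and 0.22 for Pcp4. It was 0.16 for Map3k15 and 0.15 for Mpped1. The median over the 11262 genes with a mean normalized count of at least 100 was 0.13, and 97.1% of them spread less than Cpne4, 97% less than Fibcd1 and 95.3% less than Wfs1. From the lowest to the highest library of all diets, Fibcd1 varied 3.06-fold (from ET replicate 1 to AD replicate 4) and Cpne4 2.92-fold (from ET replicate 1 to ET replicate 3). Mpped1 varied 1.45-fold.

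That spread was shared between genes of different fields. Promoters of 4 of the members in the table used are given here, 1 of each field for the correlated pairs described next and Wfs1 for contrast: Fibcd1 (CA1), Rgs14 (CA2) and Cpne4 (CA3) were correlated pair by pair, and Wfs1 (CA1) had r of 0.14, 0.48 and 0.18 with them, none of which passed (permutation test, adjusted p = 0.63, 0.12 and 0.53). The sequences are from RefSeq on GRCr8, 250 bases before to 50 after the annotated start, 5′ to 3′ on the gene's strand. They lie at chr3:35524093-35524392 on the minus strand, chr17:9268184-9268483 on the minus strand, chr8:114055902-114056201 on the plus strand and chr14:78034955-78035254 on the plus strand. Capitals mark matches, on either strand, to TATAAA, to the upstream element CCAAT, to the GC box GGGCGG and to the octamer ATGCAAAT, which POU factors bind. None of these motifs contains another.
Fibcd1: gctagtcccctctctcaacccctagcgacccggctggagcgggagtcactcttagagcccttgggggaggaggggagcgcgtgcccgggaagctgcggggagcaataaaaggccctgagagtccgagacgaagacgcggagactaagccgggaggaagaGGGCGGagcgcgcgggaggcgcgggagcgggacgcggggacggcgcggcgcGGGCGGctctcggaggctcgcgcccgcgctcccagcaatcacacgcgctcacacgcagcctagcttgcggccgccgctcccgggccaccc
Rgs14: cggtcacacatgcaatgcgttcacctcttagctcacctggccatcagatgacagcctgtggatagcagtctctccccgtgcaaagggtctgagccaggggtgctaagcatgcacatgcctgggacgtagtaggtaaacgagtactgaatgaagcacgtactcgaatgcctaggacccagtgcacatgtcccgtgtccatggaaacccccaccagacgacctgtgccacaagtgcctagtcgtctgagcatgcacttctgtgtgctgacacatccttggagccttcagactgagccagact
Cpne4: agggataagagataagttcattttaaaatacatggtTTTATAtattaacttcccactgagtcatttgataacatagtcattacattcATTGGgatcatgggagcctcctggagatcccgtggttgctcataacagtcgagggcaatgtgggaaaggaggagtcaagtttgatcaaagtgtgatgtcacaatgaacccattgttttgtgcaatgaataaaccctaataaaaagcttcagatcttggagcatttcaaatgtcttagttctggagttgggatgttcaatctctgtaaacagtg
Wfs1: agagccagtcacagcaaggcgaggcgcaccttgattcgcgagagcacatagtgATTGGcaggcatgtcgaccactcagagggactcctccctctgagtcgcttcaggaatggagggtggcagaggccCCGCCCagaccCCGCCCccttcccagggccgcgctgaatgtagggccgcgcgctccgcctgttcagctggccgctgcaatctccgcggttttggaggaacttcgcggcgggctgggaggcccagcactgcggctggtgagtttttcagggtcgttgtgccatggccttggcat
Of the 10 members, 7 have a promoter in the table used. CCAAT was found in 4 of the 7 (Wfs1, Amigo2, Pcp4 and Cpne4) and in 37.5% of all 33469 promoters of this length. GGGCGG was found in 3 of the 7 (Wfs1, Fibcd1 and Amigo2) and in 33.1% of all, TATAAA in 1 of the 7 (Cpne4) and in 14.2% of all, and the octamer in 0 of the 7 and 1.78% of all. GC content was 72.7% for Fibcd1, 55.3% for Rgs14, 38.3% for Cpne4 and 64.7% for Wfs1, and the median of all promoters was 51.7%. The Rgs14 promoter held none of the 4 motifs.

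Correlations between members were computed over the 17 libraries on log2 levels with the mean of each diet subtracted, with permutation tests within diets and adjustment over the 45 pairs. In 11 pairs the correlation was positive and in 1 negative at an adjusted p below 0.05. Only 2 of the 13 pairs within a field passed, against 10 of the 32 pairs between fields, and the difference between these shares was not tested. Bok and Cpne4, both CA3, had r = 0.95 (rho = 0.94, permutation p = 1e-05 for both, adjusted p = 0.00015 for r), where 1e-05 is the smallest p these permutations can give. Fibcd1 of CA1 followed the CA3 gene Cpne4 as closely, with r = 0.94 (rho = 0.90, permutation p = 2e-05 and 3e-05, adjusted p = 0.00018 for r). Without the 2 libraries farthest from the median, r was 0.91 for the first pair and 0.90 for the second.

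Most pairs among Fibcd1, Rgs14, Amigo2, Bok and Cpne4 were correlated across the fields, a set seen after the correlations were computed. Of their 10 pairs 9 passed, and r ran from 0.52 (Rgs14 with Amigo2, permutation test, adjusted p = 0.12) to 0.95. Fibcd1 with Bok had r = 0.92 (rho = 0.85), Rgs14 with Bok 0.89 (rho = 0.82), Rgs14 with Cpne4 0.88 (rho = 0.82) and Fibcd1 with Rgs14 0.83 (rho = 0.69). Fibcd1 with Amigo2 had 0.81 (rho = 0.87), Amigo2 with Cpne4 0.77 (rho = 0.77) and Amigo2 with Bok 0.70 (rho = 0.75). All 5 genes were lowest of ET in ET replicate 1 and lowest of AD in AD replicate 6. As a log2 difference from the ET mean, ET replicate 1 stood at -0.93 for Cpne4, -0.71 for Bok and -0.56 for Rgs14, but at 0.31 for Pcp4 and 0.22 for Mpped1. Without these 2 libraries, pairs at an adjusted p below 0.05 again numbered 12 of 45, but they were not the same pairs. Fibcd1 with Rgs14 (r = 0.60, permutation test, adjusted p = 0.11) and Amigo2 with Bok (r = 0.62, permutation test, adjusted p = 0.098) were no longer among them, and other pairs had come in.

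Within CA1 the members split. Wfs1 and Pou3f1 followed each other with r = 0.84 (rho = 0.84, permutation p = 1e-05 and 0.00017, adjusted p = 0.00015 for r), and r was 0.83 without PF animal 11f6 and PF replicate 1. Wfs1 and Fibcd1, by contrast, had r = 0.14 (rho = -0.14, permutation p = 0.59 and 0.57, adjusted p = 0.63 for r), and r was 0.48 without the same 2 libraries. Mpped1 and Map3k15 had r = 0.60 (rho = 0.71, permutation p = 0.012 and 0.0048, adjusted p = 0.044 for r). In ET and AD, Map3k15 had low normalized counts of 16.2 to 26.5. In PF it deviated from the diet mean by only -0.07 to 0.08 on the log2 scale. The negative pair was Fibcd1 with Pcp4, with r = -0.63 (rho = -0.50, permutation p = 0.011 and 0.063, adjusted p = 0.044 for r), and it rested on 2 libraries: without ET replicate 1 and AD replicate 6, r was -0.31 (permutation test, adjusted p = 0.50).

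**Figure D4:**
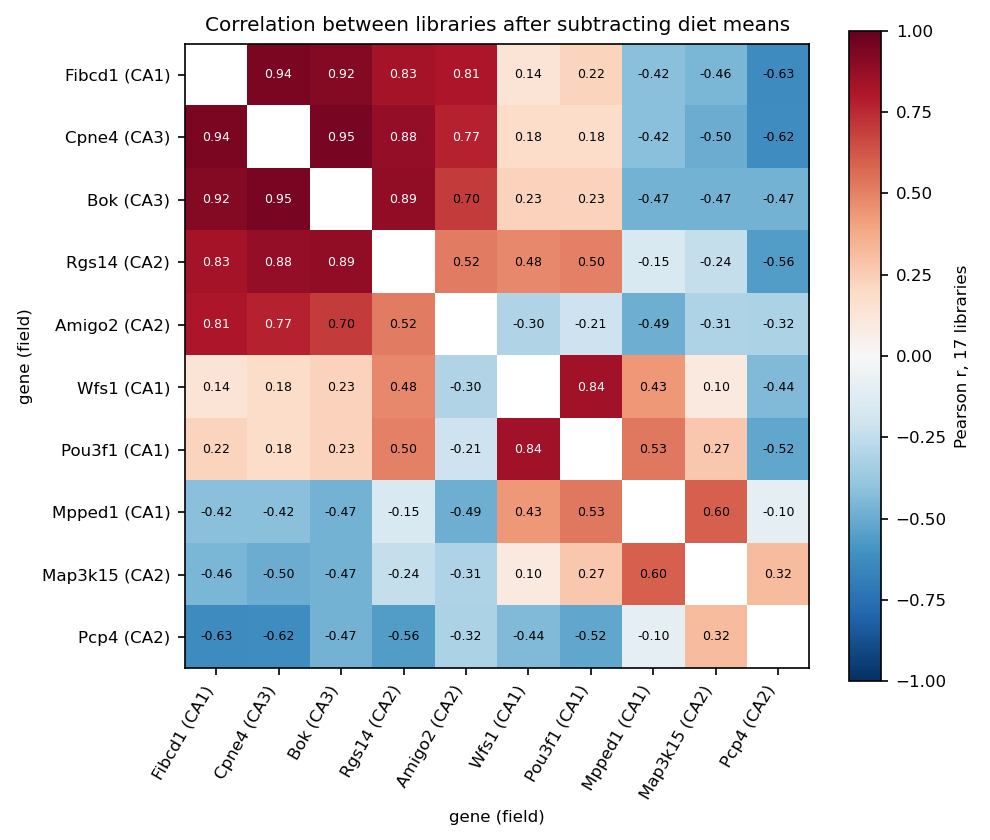
Pearson r (colour and printed value, 17 libraries) between the log2 levels of the 10 members after subtraction of each diet's mean, with genes and their fields on both axes. Fibcd1, Cpne4, Bok, Rgs14 and Amigo2 form a block of positive values (0.52 to 0.95) across CA1, CA2 and CA3, and Wfs1 and Pou3f1 (0.84) form another pair.

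Several members also moved with markers of other regions. Correlations with the summed level of 4 marker lists (5 dentate granule cell genes, 4 neocortical genes, 8 genes of thalamus and habenula and 10 choroid plexus genes) made 40 relations, a family added after the member correlations had been seen. With the dentate sum, 5 members correlated positively and 1 negatively at an adjusted p below 0.05. Cpne4 had r = 0.95 (rho = 0.95, permutation p = 1e-05 for both, the smallest possible, adjusted p = 0.0002), Fibcd1 0.91 (rho = 0.84, permutation p = 7e-05 and 0.00028, adjusted p = 0.00093 for r) and Bok 0.90 (rho = 0.86, permutation p = 1e-05 for both, adjusted p = 0.0002). Rgs14 had r = 0.83 (rho = 0.75), Amigo2 0.65 (rho = 0.65) and Pcp4 -0.69 (rho = -0.57, permutation test, adjusted p = 0.021 for r and 0.093 for rho). Leaving out the 2 farthest libraries, ET replicate 1 and PF animal 11f5, gave r = 0.91 for Cpne4, 0.82 for Fibcd1 and 0.81 for Bok. The dentate sum itself was 728, 1296, 1687, 1576 and 1185 in ET, 909 to 1587 (median 1156) in PF and 941 to 1552 (median 1290) in AD, with its lowest value of all in ET replicate 1. Its transcription factor Prox1, the defining gene of granule cells, ran from 110 to 683 in ET, 304 to 649 in PF and 244 to 498 in AD.

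With the neocortical sum, 4 members correlated negatively, Fibcd1 with r = -0.89 (rho = -0.85, permutation p = 0.00011 and 0.00022, adjusted p = 0.0011 for r), Cpne4 with -0.85 (rho = -0.76), Bok with -0.83 (rho = -0.72) and Amigo2 with -0.82 (rho = -0.86). Mpped1 correlated positively (r = 0.69, rho = 0.73, permutation p = 0.0052 and 0.0033, adjusted p = 0.021 for r). Most of this sum is Lamp5 and Tbr1, and in ET replicate 1, at its upper end, Lamp5, Tbr1 and Fezf2 were the highest of ET and Rorb the lowest. Without ET replicate 1 and AD replicate 6, r was -0.77 for Fibcd1, -0.70 for Cpne4, -0.64 for Bok, -0.80 for Amigo2 and 0.78 for Mpped1. Wfs1 had r = 0.06 with the neocortical sum over all libraries and 0.64 without those 2, and Pou3f1 had 0.07 and 0.72, so for both genes the value rested on which libraries were kept. The neocortical sum ran from 1480 to 4548 in ET, 1314 to 2740 in PF and 1534 to 3534 in AD, and no gene of this list or of the dentate list was at or under 3 counts in every library. With the choroid plexus sum Wfs1 had r = -0.61 (rho = -0.52, permutation test, adjusted p = 0.048 for r and 0.14 for rho) and Mpped1 -0.58 (rho = -0.39, permutation test, adjusted p = 0.05 for r and 0.27 for rho), so by rho neither passed. Without PF animal 11f6 and AD replicate 4 r was -0.34 and -0.38. With thalamus and habenula Mpped1 had r = -0.72 (rho = -0.61, permutation test, adjusted p = 0.05 for r and 0.074 for rho), and r was -0.58 without ET replicate 3 and PF animal 11f6. Of the genes tested in the 4 marker lists and the excitatory neuron list, none reached an adjusted p below 0.05 in a diet comparison (edgeR). Lct of the dentate list was too low to be tested in any of them, and Shox2 of the thalamus and habenula list, which was high in a few libraries only, did not pass the filter on low counts in ET against PF and in PF against AD. The thalamus and habenula list had a median log2 fold change of 0.49 in ET against PF, 0.56 in ET against AD, with Shox2 highest at 1.94 (SE 0.91, adjusted p = 1, edgeR), and 0.04 in PF against AD. The medians of the other 4 lists lay between -0.24 and 0.15. Whether the share of other regions in a dissection set the levels of the field genes was not tested.

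**Figure D5:**
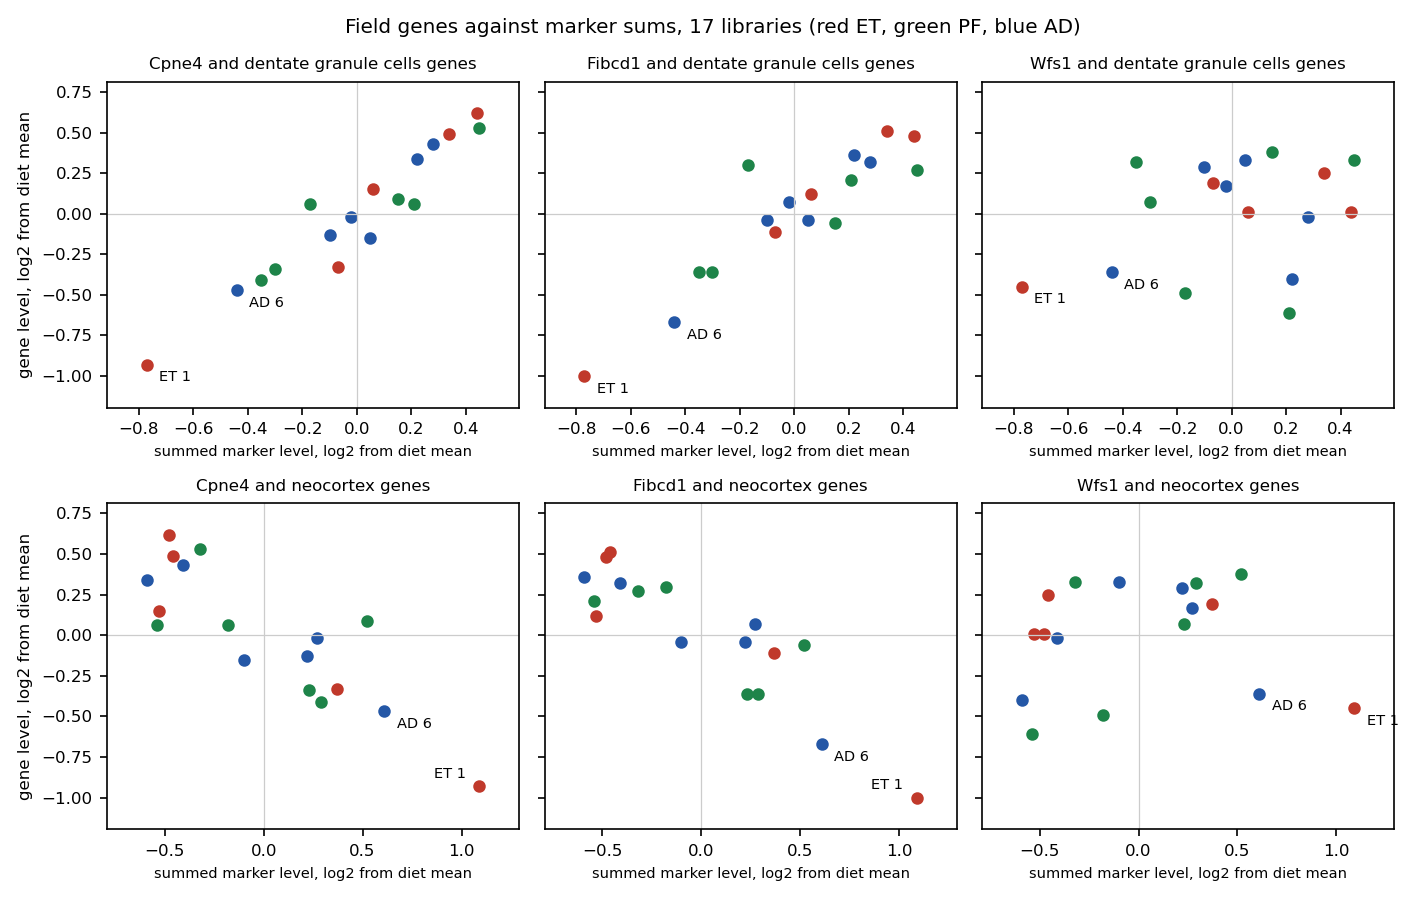
Level of Cpne4, Fibcd1 and Wfs1 (y axis, log2 difference from the diet mean) against the summed level of dentate granule cell genes (top) and neocortical genes (bottom) (x axis, log2 difference from the diet mean), 1 point per library. Cpne4 and Fibcd1 rise with the dentate sum (r = 0.95 and 0.91) and fall with the neocortical sum (r = -0.85 and -0.89), with ET replicate 1 and AD replicate 6 at one end, while Wfs1 has r = 0.28 and 0.06.

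The genes closest to the mean of each field were sought among 11253 other genes, by the correlation over 17 libraries of their level with the mean of the field's members, both with the diet means subtracted. Nearest to CA1 were Htr1b, a serotonin receptor (r = 0.94), the RNA-binding gene Syncrip (0.93), Arhgap12 (0.92), the ERK phosphatase Dusp6 (0.91) and Ikzf5 (0.91). For CA3 they were Nrip3 (r = 0.99), Rnf182, the angiotensin-(1-7) receptor Mas1, Il16 and Tanc1, a postsynaptic scaffold gene (0.98 each). For CA2 they were Mfsd3 (0.91), Adck1 (0.88), Fgfr1op2 (0.85), Wdr77 (0.82) and Tesc (0.81). The CA2 mean moved little, between -0.15 and 0.19 on the log2 scale around the diet means. It averages members that ran against each other (Rgs14 with Pcp4, r = -0.56). The CA1 mean also averages members that did not move together (Fibcd1 with Mpped1, r = -0.42). The CA3 mean is that of Bok and Cpne4, which followed the dentate sum with r of 0.90 and 0.95. For each field, the values describe likeness to its mean alone. These values all describe the same 17 libraries and carry no test.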

How the data were processed

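RNA was measured by stranded paired-end mRNA sequencing of 17 hippocampi. The authors filtered reads with fastp, mapped them to mRatBN7.2 with Bowtie2 2.4.2 and counted fragments on exons with featureCounts 2.0.1, with a minimum mapping quality of 10 and reads allowed to count for several features. The annotation release and strand setting are not given in the sources used here. The deposited values are fragment counts that the authors averaged over 3 technical replicates and did not normalize, treated here like expected counts since 53.3% are whole (within 1e-05) and the others are not. Multiplied by 3, all were whole to within 0.0001. Libraries held 10853947 to 17498392 fragments, and counts at or under 3 were treated as the floor. No 2 libraries of one diet agreed within sampling noise (40 pairs, smallest chi-square per gene 8.64).

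Here the counts were rounded, filtered with filterByExpr, scaled by TMM and tested 2 diets at a time with edgeR 4.0.16 in R 4.3.3 (quasi-likelihood test, Benjamini-Hochberg over all genes tested). All 17 libraries were used, with the 14 of the study's final set as an alternative. Sex was tested in ET and PF with diet as a covariate, and hemisphere in all libraries with diet. DESeq2 1.42.0, median-of-ratios scaling, no filter, sex as a covariate, 1 fit of all diets, the replicate number as a block and leaving out each library were alternatives. Leaving out the 2 libraries with the highest sums of 4 neocortical genes where a comparison held both, the fit of numbered samples without a block and the correlations with marker lists were added after seeing the data. The SE is the absolute log2 fold change over the square root of F. Correlations used log2(normalized count + 1) and 100000 permutations within diets (Python 3.11.15, numpy 2.4.6, scipy 1.17.1). Scripts were tested on simulated data.

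The members and gene lists were chosen with earlier results of these data known. Named genes are the 10 members, list genes past a threshold or at the end of a list's range, genes overlapping a member, and the 5 genes most correlated with each field's mean. Other list genes are named to show what a list holds. A further gene of the CA1 list is not reported here. Promoters and overlaps come from RefSeq on GRCr8, a different assembly from the authors'. The PF males 11f5 and 11f6 are called by their animal names in the count table, since their replicate numbers were not clear.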

Additional observations from a re-analysis of the deposited data

Results flagged for a closer look

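Among the 30 sets of values given by 10 genes in 3 diets, 1 held a library far from the others of its diet. The normalized count of Mpped1 in PF animal 11f6 was 3166, where the other PF rats had 4002 to 4279, so that the gap took 0.75 of the group's range. By chance, about 1 in 20 sets is expected to pass the limit of the test used, Dixon's gap test at 95%. PF animal 11f6 is also the PF library with the high choroid plexus sum of 113282, and the part of that in the low Mpped1 count was not tested.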

How the results depend on the processing

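Map3k15 kept its call in all 19 alternatives of ET against PF (log2 fold change -3.2 to -3.04, largest adjusted p = 0.0024, edgeR or DESeq2) and in all 20 of PF against AD (3.28 to 3.37, largest adjusted p = 2.3e-05). In ET against AD the 0 members called remained 0 in every alternative. In PF against AD, members at an adjusted p below 0.05 numbered 1 with all libraries and 1 to 3 with a library left out. Over all members, 168 of 190 single values in ET against PF, 185 of 190 in ET against AD and 192 of 200 in PF against AD kept their direction and side of the threshold, and the others changed sign. In ET against PF, the 14 samples gave -0.05 for Wfs1 and -0.02 for Rgs14. With a library left out, ET against PF ran from -0.05 to 0.15 for Wfs1, -0.09 to 0.15 for Rgs14, -0.17 to 0.01 for Amigo2, -0.12 to 0.22 for Cpne4 and, with no change of sign, -0.34 to -0.04 for Fibcd1 and 0.14 to 0.37 for Bok. ET against AD ran from -0.16 to 0.01 for Wfs1, -0.02 to 0.14 for Pcp4 and -0.08 to 0.26 for Cpne4, and PF against AD from -0.08 to 0.10 for Fibcd1 and -0.10 to 0.13 for Cpne4. Which feature of a library turned these signs was not tested. Correlated pairs at an adjusted p below 0.05 numbered 10 in the 14 samples and 12 in the other alternatives.

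Replicate numbers do not pair the samples, which are different animals: same-numbered samples deviated together with a mean r of 0.28 in ET against PF (3 pairs, -0.15 to 0.75), -0.09 in ET against AD (5 pairs) and 0.01 in PF against AD (4 pairs). Blocking on the number, 1, 0 and 1 members were called in these comparisons, as without it. With the replicate block, ET against PF was -0.03 for Wfs1, -0.14 for Rgs14, -0.15 for Cpne4, -0.47 for Fibcd1 and 0.04 for Pou3f1. ET against AD was then -0.07 for Cpne4, and PF against AD was 0.07 for Amigo2 and 0.05 for Bok. The numbered samples without a block already gave -0.01 for Wfs1, -0.04 for Rgs14 and -0.04 for Cpne4 in ET against PF. These signs thus turned with the samples kept, before the block was added.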
